A study of Mus musculus with 2 samples.

Results

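A set of 40 mitosis genes was followed through the endothelial cells that give rise to blood in the mouse aorta. Their products drive entry into mitosis, build the spindle, watch over chromosome attachment and split the cell. The members were taken by symbol, and all 40 were found once each among the 27514 genes of the count matrix. A unique molecular identifier (UMI) marks 1 captured transcript, and the members held 671088 UMIs, or 0.446% of all UMIs, in 8405 cells. The single-cell RNA-seq libraries came from E10.5 embryos, the stage at which hemogenic endothelium (HE) gives rise to intra-aortic hematopoietic clusters (IAC). Sorted cells were negative for Ter119, low or negative for CD41, and positive for CD31, CD144 and ESAM. There was 1 wild-type library of 4451 cells and 1 SP3-null library of 3954 cells. SP3 is a broadly expressed zinc finger transcription factor that binds GC-rich DNA. Embryos of both genotypes came from matings of Sp3+/- parents on a mixed C57Bl6/J and B6129SF1/J background, with the mutant allele derived from B6.129P2-Sp3tm1Sus/Cnrm. They were pooled by genotype. The allele is carried in every cell of the embryo. Paired values below give the wild-type library first and the SP3-null library second.

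Each cell carried a class assigned by the study: venous (VE) and arterial (AE) endothelium with high or low Wnt signaling, conflux AE, pre-HE, HE, IAC and other endothelium. Arterial cells are more numerous in the deposited table than in the study's own list of cell numbers. Why was not tested, and Wnt-low AE, the reference below, is among these classes. Classes were set from the expression of these same cells, so differences between classes are a description. Levels are UMIs per 1000000 UMIs (CPM). Summed arterial markers reached 3751 to 4084 CPM in conflux AE and pre-HE, against 974 to 1062 CPM in the Wnt-high and Wnt-low AE classes. Runx1, the factor that specifies HE, stood at 356 and 242 CPM in HE, where pre-HE had 3.90 and 2.24 CPM. HE also held 3 and 4 cells with at least 3 neural markers. Median depth ran from 8850 UMIs per cell in SP3-null conflux AE to 31009 in wild-type IAC, and 5 cell barcodes occurred in both libraries. Sp3 itself was at 47.6 and 36.4 CPM, but a 3′ tag need not lie in the disrupted part of the gene. Because each genotype had a single library from a single pool, the effects of genotype, embryos and library preparation cannot be told apart. No test was made, and 95% intervals cover counting error only.

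Transcripts of mitosis genes build up late in the cell cycle and are cleared after division. The MuvB complex with B-MYB and FOXM1 acts on many of their promoters through an element called the CHR (cell cycle genes homology region), often with NF-Y bound at CCAAT boxes nearby. Arterial endothelium of the embryo is known to slow its cycle as it matures, whereas hematopoietic clusters are known to proliferate.

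The members fall into 7 roles. Cyclins, mitotic kinases and their activator (Cdk1, Ccna2, Ccnb1, Ccnb2, Plk1, Aurka, Tpx2) held 17.8% and 17.8% of mitosis UMIs in the endothelial classes, and the chromosomal passenger complex (Aurkb, Birc5, Incenp, Cdca8) 15.2% and 15.1%. The spindle checkpoint and anaphase-promoting complex (Bub1, Bub1b, Bub3, Mad2l1, Cdc20, Ube2c) held 17.3% and 18.1%, and the centromere and kinetochore (Cenpa, Cenpe, Cenpf, Ndc80, Nuf2) 14.2% and 14.1%. Kinesin motors (Kif11, Kif20a, Kif20b, Kif23, Kif2c, Kif4) held 6.03% and 5.78%, and genes of microtubule binding and cytokinesis (Prc1, Ect2, Anln, Racgap1, Hmmr, Nusap1) 8.58% and 8.82%. Chromosome structure and condensin (Mki67, Top2a, Smc2, Smc4, Ncapd2, Ncaph) had the largest share, 20.9% and 20.3%.

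Promoters are shown because the 40 genes were low together in the same class, as described below. RefSeq promoter windows on GRCm38.p6 were matched by symbol for 34 of the 40 genes, as 37 windows. A CHR, read as TTTGAA or TTTAAA on either strand (TTTGAA is TTCAAA on the other), lay within 250 bases before the start in 54.1% of these windows and in 25.2% of all 32851 windows. Taken apart, TTTGAA lay in 40.5% against 16.0%, and TTTAAA in 16.2% against 12.1%, a smaller difference. A CCAAT box (ATTGG on the other strand) lay in 75.7% against 33.8%, and at least 2 boxes in 51.4% against 10.1%. A GC box, GGGCGG or CCGCCC, lay in 70.3% against 32.7%. CHR and CCAAT matches can share an end base. These are matches of letters only, and the windows of all genes were not matched to the members for base composition or expression. The 150 bases before the start are given 5′ to 3′ with CHR and CCAAT matches in capitals, for Cdk1 (chr10:69352913-69353062, minus strand), Ccnb1 (chr13:100786487-100786636, minus strand), Ccnb2 (chr9:70421555-70421704, minus strand), Ube2c (chr2:164769779-164769928, plus strand), Top2a (chr11:99024190-99024339, minus strand) and Nusap1 (chr2:119618148-119618297, plus strand).
Cdk1: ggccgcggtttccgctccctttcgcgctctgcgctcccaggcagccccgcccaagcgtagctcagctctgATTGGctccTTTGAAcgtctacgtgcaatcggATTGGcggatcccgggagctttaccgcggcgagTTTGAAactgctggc
Ccnb1: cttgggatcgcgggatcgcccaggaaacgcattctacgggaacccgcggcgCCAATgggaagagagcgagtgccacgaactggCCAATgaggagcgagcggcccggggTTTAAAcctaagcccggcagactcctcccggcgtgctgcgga
Ccnb2: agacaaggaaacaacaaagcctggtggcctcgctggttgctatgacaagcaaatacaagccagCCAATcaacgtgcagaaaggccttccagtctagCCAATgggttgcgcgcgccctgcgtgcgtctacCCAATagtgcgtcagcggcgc
Ube2c: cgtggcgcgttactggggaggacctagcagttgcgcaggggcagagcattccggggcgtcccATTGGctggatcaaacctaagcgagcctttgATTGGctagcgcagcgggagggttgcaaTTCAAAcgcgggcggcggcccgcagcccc
Top2a: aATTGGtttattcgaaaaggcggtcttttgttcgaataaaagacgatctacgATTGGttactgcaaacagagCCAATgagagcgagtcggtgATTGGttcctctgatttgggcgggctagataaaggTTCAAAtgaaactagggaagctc
Nusap1: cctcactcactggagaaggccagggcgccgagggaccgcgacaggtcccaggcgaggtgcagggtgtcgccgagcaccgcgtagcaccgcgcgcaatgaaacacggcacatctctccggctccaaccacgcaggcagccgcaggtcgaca
Cdk1, Ccnb1, Ube2c and Top2a hold both kinds of match in this stretch. Ccnb2 holds CCAAT boxes and no CHR letters in it, and Nusap1 holds neither. A CHR match of Ccnb2 begins 167 bases before the start, within the 250 bases counted above.

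Mitosis genes were abundant in most endothelium and low in the cells that lead to HE. Their summed level was 4935 and 4688 CPM in Wnt-high VE, 4696 and 4745 CPM in Wnt-low VE and 4516 and 4425 CPM in Wnt-low AE. Wnt-high AE stood lower, at 3519 and 3244 CPM. In conflux AE the sum was 1522 CPM (1469.7 to 1575) for the wild type and 2022 CPM (1950.1 to 2096) for the SP3 null. This was the lowest sum among the 9 classes in both libraries. Next came pre-HE, with 3005 CPM (2919 to 3093) and 2047 CPM (1954 to 2143), and its SP3-null interval overlaps that of conflux AE. In HE the sum reached 4411 and 3294 CPM, and in IAC 4438 and 4192 CPM. Fewer dividing cells and fewer transcripts per cell cannot be told apart in these sums, nor in the shares of cells further on, which are cut from the same UMIs.

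**Figure D1:**
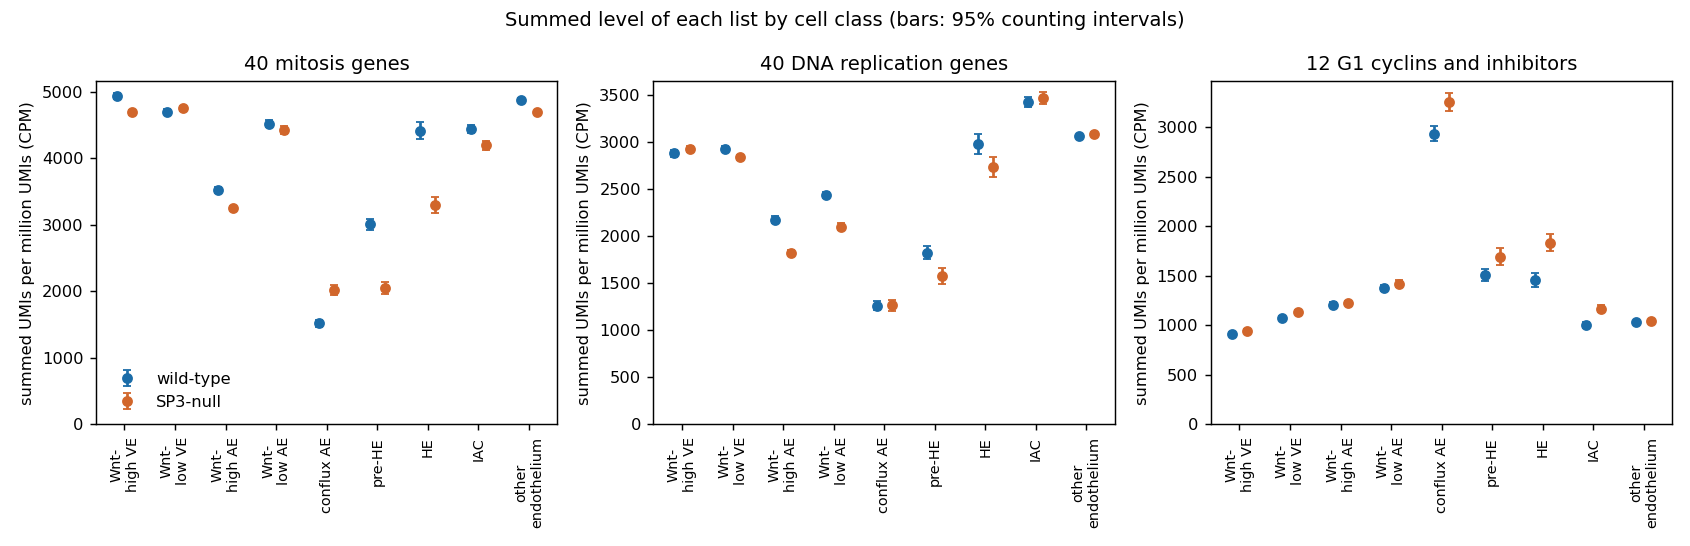
Summed CPM (vertical axes) of 40 mitosis genes, 40 DNA replication genes and 12 G1 cyclins and inhibitors in 9 cell classes, with blue for the wild type, orange for SP3-null and 95% counting intervals. The mitosis genes are lowest in conflux AE, at 1522 and 2022 CPM, where the G1 list is highest, at 2935 and 3251 CPM. Most of that G1 sum is the single inhibitor gene Cdkn1c, whose values are given below.

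Every member was lower in conflux AE than in Wnt-low AE. In the wild type 40 of 40 members were lower by a log2 ratio of 0.5 or more, where 14.7% of all genes tested were, and in the SP3 null 39 of 40, where 14.5% were. The median log2 ratio of the members was -1.69 and -1.23, against 0.020 and 0.010 over all genes tested. That of their sum was -1.57 and -1.13. Bub3, a checkpoint protein, was the exception in the SP3 null, at -0.39 (-0.60 to -0.17). Mitochondrial transcripts moved along with this step, with a median of 7.68% and 7.97% of UMIs per cell in conflux AE and 5.67% and 5.31% in Wnt-low AE, and their part in the result was not tested. So did summed neural markers, at 612 and 467 CPM in conflux AE against 110.3 and 74.9 CPM in Wnt-low AE, of which 609.9 and 467 CPM and 109 and 73.02 CPM were Stmn2 alone. No cell of either class held 3 neural markers.

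**Figure D2:**
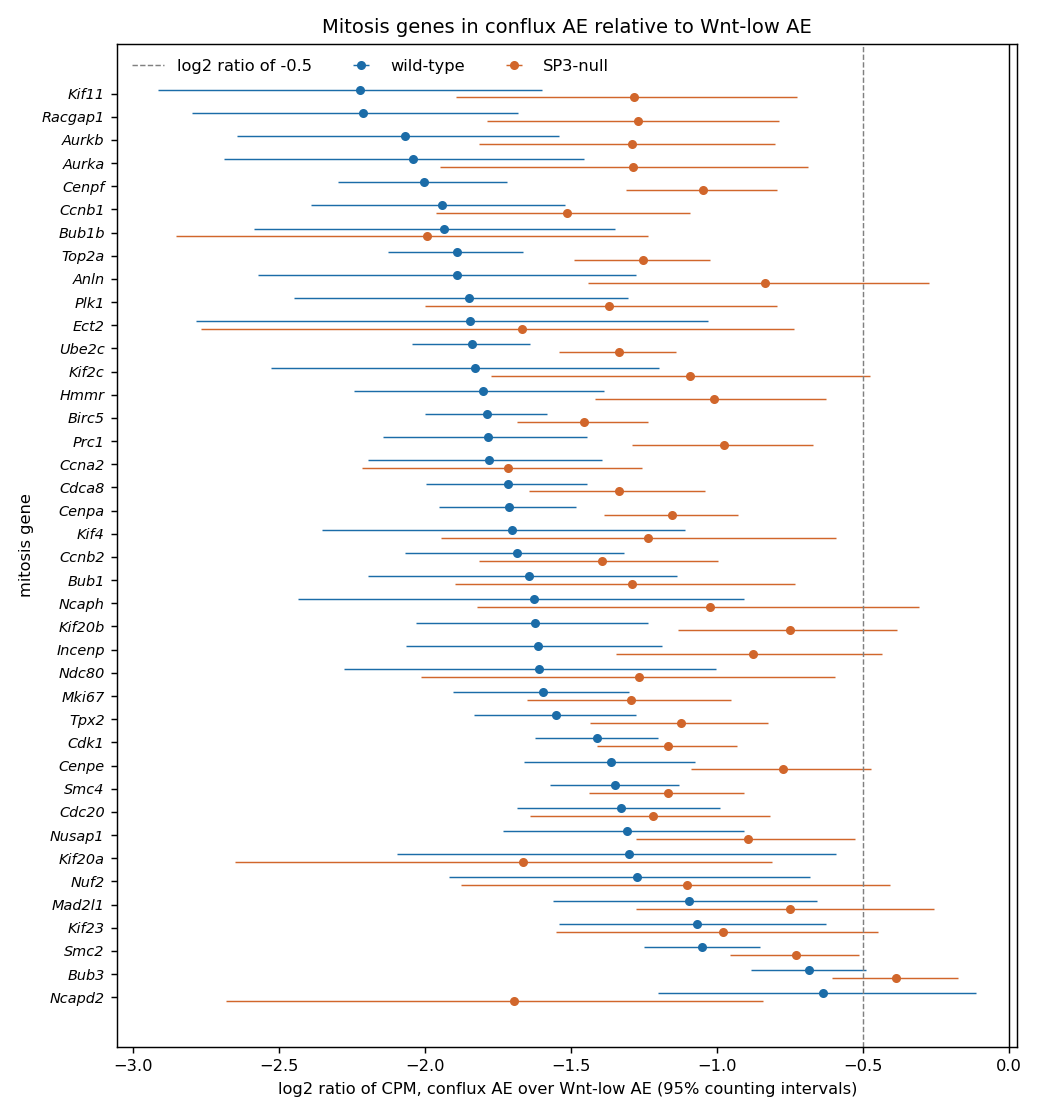
Log2 ratio of CPM in conflux AE over Wnt-low AE for each of the 40 mitosis genes, with blue points for the wild type, orange points for SP3-null and 95% counting intervals. All points lie below 0, from -2.22 for Kif11 in the wild type to -0.39 for Bub3 in the SP3 null.

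Entry into mitosis is driven by Cdk1, the mitotic kinase, with its B-type cyclins. Cdk1 stood at 256 and 247 CPM in Wnt-low AE, 96.2 and 109.9 CPM in conflux AE, then 199 and 161 CPM in HE. Tpx2, which activates Aurora A on the spindle, stood at 165 and 151 CPM, 56.3 and 69.4 CPM and 166 and 127 CPM in these classes. Both genes were thus lowest in conflux AE of the 3 classes. Ccnb1 had 88.3 and 96.2 CPM in Wnt-low AE and 23.01 and 33.7 CPM in conflux AE, and Ccnb2 had 99.5 and 101 CPM and 30.99 and 38.4 CPM. The summed log2 ratio of this role at the step was -1.62 and -1.30.

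The chromosomal passenger complex corrects faulty attachments and guides cytokinesis. Birc5, which encodes survivin, stood at 333 and 336 CPM in Wnt-low AE, 96.7 and 123 CPM in conflux AE, then 285 and 169.7 CPM in HE. Cdca8, which encodes borealin, stood at 185 and 175 CPM, 56.3 and 69.4 CPM and 185 and 132 CPM. Aurkb, the kinase of the complex, had a log2 ratio of -2.07 and -1.29 between conflux AE and Wnt-low AE, and Aurka, the related spindle pole kinase, one of -2.04 and -1.29. The 2 kinases were thus lower by nearly the same ratio.

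The spindle checkpoint restrains the anaphase-promoting complex until chromosomes are attached, and Ube2c is the ubiquitin-conjugating enzyme of that complex. Ube2c, the member with the most UMIs, had 369 and 389.7 CPM in Wnt-low AE and 103 and 154 CPM in conflux AE. Bub3 had 189.9 and 190.2 CPM and 118 and 146 CPM, a smaller step. The checkpoint kinase Bub1 and its relative Bub1b had log2 ratios of -1.64 and -1.29, and of -1.94 and -1.99. At the centromere, Cenpa, the centromeric histone, had 254 and 264 CPM and 77.5 and 119 CPM. Cenpf, a kinetochore protein, had 203 and 199 CPM and 50.7 and 96.4 CPM.

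Among the kinesin motors, Kif20b, which acts in cytokinesis, had 85.2 and 80.4 CPM in Wnt-low AE and 27.7 and 47.9 CPM in conflux AE. Kif11, which pushes spindle poles apart, had the lowest wild-type ratio of all members, -2.22 (-2.91 to -1.60), and -1.28 (-1.89 to -0.73) in the SP3 null. Prc1, which bundles the central spindle, had 123 and 134 CPM and 35.7 and 68.1 CPM, and Hmmr, a spindle protein, 83.4 and 84.2 CPM and 23.9 and 41.8 CPM. Top2a, the topoisomerase that untangles sister chromatids, had 294 and 278 CPM and 79.3 and 117 CPM. The condensin subunit Smc2 had 233 and 221 CPM and 113 and 133 CPM, a smaller step than that of Top2a. By role, the wild-type log2 ratio ran from -1.77 to -1.36 and the SP3-null one from -1.34 to -1.02, so all 7 roles were lower.

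The low sums of conflux AE and pre-HE went with few cells rich in mitosis UMIs. Each cell was thinned to 5000 UMIs, which left out 464 and 325 endothelial cells of lower depth. A cell was called mitosis-high when at least 10 of its 5000 UMIs came from the 40 genes, which is a range of a score and not a cell type. Of the endothelial cells, 170 and 157 lay within 1 UMI of that limit. In Wnt-low AE, 67.5% (62.6% to 72.1%) and 56.8% (51% to 62.5%) of cells were mitosis-high. In conflux AE the share was 15.7% (10.1% to 22.8%) and 18.9% (11.9% to 27.6%), from 22 of 140 and 20 of 106 cells. The median conflux AE cell had 3 mitosis UMIs in each library, against 16 and 12 in Wnt-low AE. Within mitosis-high cells the mean was 35.7 and 41.8 UMIs in conflux AE and 30.3 and 33.1 in Wnt-low AE. In the other cells it was 2.44 and 2.94 UMIs in conflux AE against 4.36 and 4.18 in Wnt-low AE, and all these means are taken within ranges of the same score. Without thinning, at a rate of 2000 CPM, the shares were 63.98% and 53.7% in Wnt-low AE and 15.96% and 15.9% in conflux AE.

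**Figure D3:**
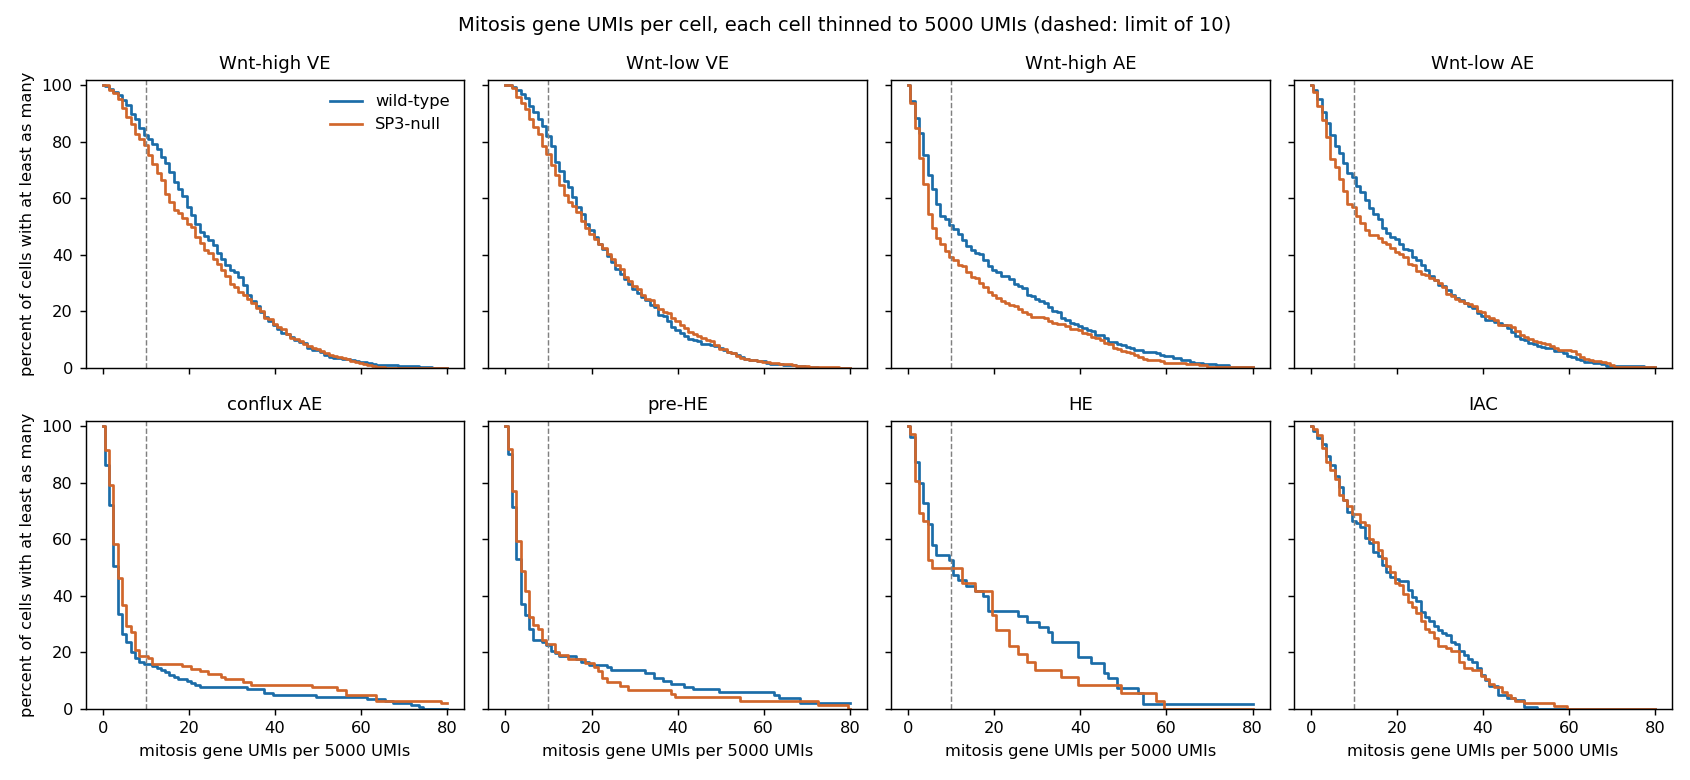
Percent of cells (vertical axis) with at least a given number of mitosis gene UMIs (horizontal axis) after thinning each cell to 5000 UMIs, in 8 classes and both libraries, with the limit of 10 dashed. At the limit stand 15.7% and 18.9% of conflux AE cells and 22.5% and 22.97% of pre-HE cells, against 82.6% and 78.8% of Wnt-high VE cells.

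Venous cells were often mitosis-high, at 82.6% and 78.8% in Wnt-high VE and 82.2% and 75.7% in Wnt-low VE, as was other endothelium, at 84.3% and 80.6%. Wnt-high AE stood at 50.5% and 39.1%. The share was 22.5% and 22.97% in pre-HE, 52.7% (38.8% to 66.3%) and 50% (32.9% to 67.1%) in HE, and 66.7% and 68.9% in IAC. The low share was thus that of conflux AE and pre-HE. For a single member, 47.5% and 45.2% of thinned cells held a Top2a UMI in Wnt-low AE, 17.9% and 19.8% in conflux AE, 47.3% and 50% in HE and 64.3% and 55.3% in IAC. The median over the 40 members was 25% and 24.3% in Wnt-low AE and 8.57% and 11.3% in conflux AE. Unthinned, these medians were 44.4% and 40.9%, and 14.9% and 15.9%, at median depths of 13319.5 and 14172.5 UMIs and 9248.5 and 8850 UMIs. No class is known to lack these genes, so a background share from free RNA could not be set.

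In HE most members stood higher than in pre-HE. A log2 ratio of 0.5 or more was met by 18 of 38 members tested in the wild type, where 17.2% of all genes met it, and by 21 of 27 in the SP3 null, where 20.7% did. Mad2l1, a checkpoint protein, had the highest wild-type ratio, 1.19 (0.54 to 1.86), and Kif11 the highest SP3-null one, 1.50 (0.72 to 2.34). Depth moved along with this step, from medians of 9257.5 and 9163 UMIs to 17656 and 21366 UMIs, and mitosis-high shares at equal depth are given above. Cells with at least 3 markers of another cell type held 22.1% and 22.8% of the mitosis UMIs of HE. Without them the HE sum was 4101 and 3220.4 CPM against 3025 and 2074 CPM for pre-HE, so HE remained above pre-HE.

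IAC had mitosis genes near the level of Wnt-low AE and above the other AE classes. Against Wnt-low AE, 3 of 40 members were lower and 4 higher by a log2 ratio of 0.5 or more in the wild type, where 25.1% of all genes were lower and 24.3% higher. In the SP3 null 3 were lower and 2 higher, where 25.6% of all genes were lower and 24.8% higher. The members and all genes were not matched for depth in these counts. Kif11 had the highest wild-type ratio, 0.59 (0.36 to 0.81), and stood at 0.50 (0.24 to 0.76) in the SP3 null. Ndc80, which binds microtubules at the kinetochore, had the lowest, -0.70 (-1.07 to -0.35), and stood at -0.31 (-0.70 to 0.063). In the SP3 null Bub1b was highest, at 0.85 (0.58 to 1.12), and Kif23, a kinesin of the midbody, lowest, at -0.62 (-0.98 to -0.28).

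Members differed in how far their UMIs were gathered in few cells. After thinning, the 218 and 208 endothelial cells with the most mitosis UMIs (10% of the cells) held 27.5% and 29.1% of mitosis UMIs. The same UMIs ranked these cells, so this share could not fall below 10%. Before thinning, these cells held 10.7% and 11.4% of all UMIs. For single members, cells were ranked by the other members. The top 10% then held 39.5% and 41.4% of the UMIs of Nusap1, which stabilizes spindle microtubules. They held 37.7% and 40.1% for Prc1, 37.3% and 36.8% for Aurka, 34.4% and 38.8% for Cenpf and 32.3% and 37.2% for Hmmr. These 5 members were the most gathered by the mean of both libraries. At the other end, by the same mean, stood Ccnb2, with 15.5% and 16.2%, and Mad2l1, with 16.7% and 15.3%. Birc5 had 17.9% and 19.1%, and the condensin subunits Smc2 and Smc4 had 18% and 18.8%, and 20.3% and 18.9%. The B-type cyclins parted here, since Ccnb1 had 30.3% and 35.1%. Aurkb had 23.97% and 27.5%, less than Aurka. Bub1 had 22.4% and 22.8% and Bub1b 27.03% and 23.4%. Cells are not replicates, so these shares describe the libraries at hand.

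**Figure D4:**
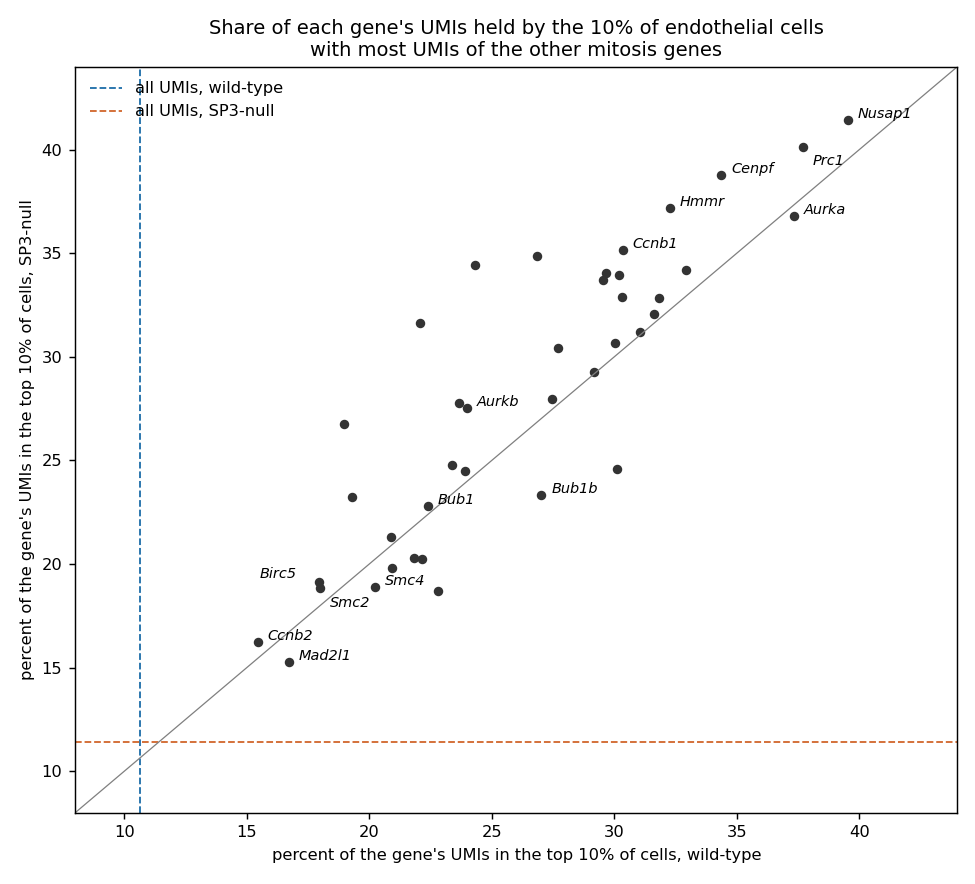
Percent of each gene's UMIs held by the 10% of endothelial cells with the most UMIs of the other mitosis genes, in the wild-type (horizontal axis) and SP3-null (vertical axis) library, with 1 point per gene. Nusap1 lies highest, at 39.5% and 41.4%, and Ccnb2 lies near the lower end, at 15.5% and 16.2%.

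Other genes of the cycle were low in conflux AE as well, while an inhibitor was high. Of a list of 40 DNA replication genes, 36 of 40 and 33 of 39 tested were lower there than in Wnt-low AE by a log2 ratio of 0.5 or more, with medians of -1.09 and -0.76. Of 71 other G2/M genes 65 of 68 and 51 of 63 were lower, with medians of -1.46 and -0.98. Over all genes tested, 14.7% and 14.5% were lower by that ratio. Of 12 G1 cyclins and inhibitors 1 of 11 and 2 of 10 were lower and 4 and 4 higher, where 17.1% and 17.4% of all genes were higher. Cdkn1c, which encodes the cell cycle inhibitor p57, stood at 653 and 715 CPM in Wnt-low AE and reached 2324 and 2587 CPM in conflux AE. Later on the path it had 763 and 959 CPM in pre-HE and 343 and 507 CPM in IAC. It was highest where the mitosis genes were lowest. Ccnd1, which encodes cyclin D1, stood at 289 and 272 CPM in Wnt-low AE, and in conflux AE at 98.1 and 109 CPM, with 42.9 and 35.9 CPM left in pre-HE. Cdkn1c alone made up most of the summed G1 list in conflux AE, 2324 and 2587 of 2935 and 3251 CPM. Within that class, the summed list stood at 2045 and 2976 CPM in mitosis-high cells and at 3204 and 3442 CPM in the others. The part of Cdkn1c in this difference was not tested.

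Between the libraries, the mitosis genes differed little in the summed endothelial cells (both VE classes, Wnt-high, Wnt-low and conflux AE, and pre-HE). The sum was 4286 and 4185 CPM in 2639 and 2401 cells, a log2 ratio of SP3-null over wild-type of -0.034 (-0.044 to -0.025). None of the 40 members was past a log2 ratio of 0.25 in either direction, where 13.1% of all genes tested were lower and 7.34% higher. Below 0 lay 33 members and above it 7, while 6710 of the 11814 genes tested lay below 0. Nuf2, the partner of Ndc80, was lowest, at 29.3 and 24.8 CPM (log2 ratio -0.24, -0.37 to -0.12), and Nusap1 highest, at 61.2 and 70.4 CPM (log2 ratio 0.20, 0.12 to 0.28). Abundant members were nearly level, with 272 and 269.9 CPM for Top2a, 342 and 333 CPM for Birc5 and 244 and 245 CPM for Cdk1.

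Mitosis-high cells made up 66.9% (64.9% to 68.9%) and 60.3% (58.1% to 62.4%) of the thinned endothelial cells, a difference of -6.64 points (-9.55 to -3.71), and 63.1% and 56.9% without thinning. The difference was -11.4 points (-18.05 to -4.60) in Wnt-high AE and -10.7 points (-18.1 to -3.23) in Wnt-low AE. In VE it was -3.79 points (-8.94 to 1.45) for Wnt-high and -6.55 points (-11.1 to -2.02) for Wnt-low cells. At a limit of 5 UMIs the endothelial, Wnt-high AE and Wnt-low AE differences were -5.01 points, -13.7 points (-20.2 to -7.12) and -8.73 points (-15.2 to -2.35). At a limit of 20 UMIs they were -3.72 points, -8.78 points (-15.03 to -2.52) and -4.57 points (-12.1 to 3.08), and that of Wnt-low VE was -1.34 points (-6.87 to 4.19), so the Wnt-low intervals cross 0 there. With the 6 classes weighted alike and a limit of 10 the endothelial difference was -4.81 points. At the limit of 10 the share was lower in the SP3-null library in these 4 classes, although the interval for Wnt-high VE crosses 0. In Wnt-high AE the sum had a log2 ratio of -0.12 (-0.14 to -0.093), and of -0.32 with each cell weighted alike. There Nuf2 stood at 24.98 and 17.7 CPM (log2 ratio -0.50, -0.81 to -0.18) and Top2a at 245 and 212 CPM (log2 ratio -0.21, -0.31 to -0.12). DNA replication genes had median log2 ratios of -0.30 in Wnt-high AE and -0.26 in Wnt-low AE, against -0.038 and -0.020 over all genes tested.

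In 3 small classes the sums differed more between the libraries. In conflux AE the log2 ratio was 0.41 (0.34 to 0.48), and 23 of 31 members tested were higher by 0.25 or more, where 17.0% of all genes were. In pre-HE it was -0.55 (-0.63 to -0.48), with 27 of 34 members lower, where 21.0% of all genes were. In HE it was -0.42 (-0.49 to -0.36), with 25 of 35 lower, where 19.5% of all genes were. In IAC it was -0.082 (-0.11 to -0.051), with 5 of 40 lower, where 19.0% of all genes were. None of these shares over all genes was matched for depth. In HE, Anln, which anchors the contractile ring, had the lowest ratio, at 42.7 and 17.9 CPM (log2 ratio -1.26, -2.17 to -0.41). Ncapd2, a condensin subunit, had the highest, at 26.7 and 31.3 CPM (log2 ratio 0.23, -0.57 to 1.02). Ccnb2 stood at 81.8 and 41.3 CPM (log2 ratio -0.99, -1.58 to -0.42), Birc5 at 285 and 169.7 CPM (log2 ratio -0.75, -1.04 to -0.47) and Aurka at 42.7 and 40.2 CPM (log2 ratio -0.086, -0.75 to 0.57).

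These sums rested on few cells. HE had 59 and 40 cells, pre-HE 136 and 92, and conflux AE 188 and 145. The 3 cells with the most mitosis UMIs held 21.2% and 23.3% of those UMIs in conflux AE, 30.7% and 28.9% in pre-HE and 25.1% and 38.3% in HE. Mitosis-high shares differed by 3.15 points (-6.78 to 13.5) in conflux AE, 0.424 points (-12.5 to 14.04) in pre-HE and -2.73 points (-24.6 to 19.3) in HE, and all 3 intervals cross 0. With each cell weighted alike, the log2 ratio in pre-HE was -0.14. In HE it was -0.71 without the 3 cells of each library with the most mitosis UMIs, -0.25 without the 5% of cells with the most UMIs, and -0.35 without cells that carried markers of other types. The counts of HE members lower were then 29 of 30, 15 of 33 and 22 of 32, where 20.2%, 20.1% and 20% of all genes were lower. Transcripts that mark female and male embryos differed between the libraries too. Xist had a log2 ratio of 0.96 in conflux AE, 0.42 in pre-HE and -1.17 in HE, and the sum of 4 Y-linked genes -0.063, 0.38 and 1.83. A change of the sex mix would move them in opposite directions, as was seen in HE and in IAC, at -0.75 and 1.13. Such moves, with intervals clear of 0, were also seen in Wnt-high AE, at 0.42 and -0.19, the reverse of HE. So were they in Wnt-low VE, at -0.13 and 0.38, and other endothelium, at -0.20 and 0.25. In pre-HE both were higher, and in conflux AE the interval of the Y-linked genes crosses 0 (-0.39 to 0.26). Arterial markers in HE stood at 1342 and 951 CPM. The part of the sex mix and of arterial transcripts in these results was not tested. Nor was that of the sex mix in the mitosis-high differences of Wnt-high AE and Wnt-low VE above.

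**Figure D5:**
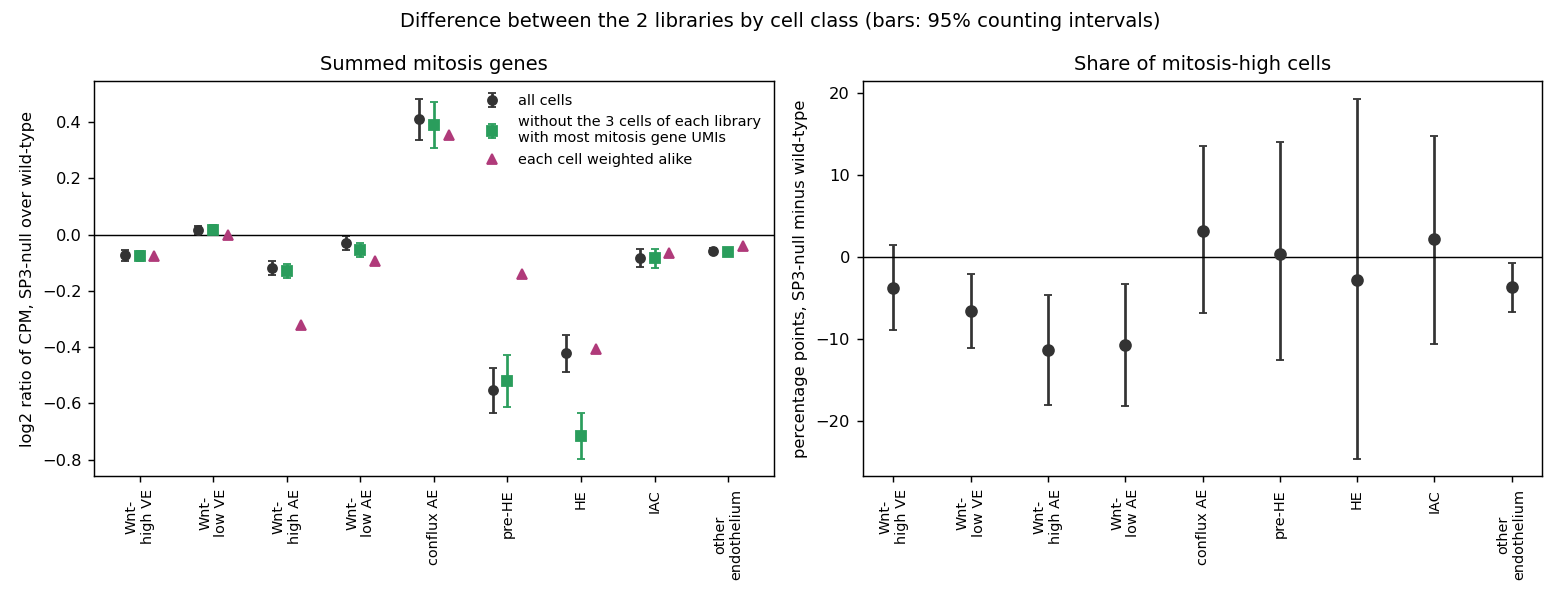
Left, log2 ratio of the summed mitosis genes, SP3-null over wild-type, by class with all cells, without the 3 cells of each library with the most mitosis UMIs, and with each cell weighted alike. Right, difference in the share of mitosis-high cells in percentage points, with 95% counting intervals. The sum lies at 0.41 in conflux AE and -0.55 in pre-HE, while the share differences there, 3.15 points (-6.78 to 13.5) and 0.424 points (-12.5 to 14.04), have intervals that cross 0.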

How the data were processed

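The authors aligned reads to mm10 (GRCm38) with Cell Ranger and filtered barcodes at 1000 UMIs and 1000 expressed genes. They then removed contaminating cell types and assigned classes by nearest cells of a reference. The version of Cell Ranger is not given in the sources used here, nor is the number of embryos. The deposited matrix holds unnormalized UMI counts, and the deposited cell table gives each cell's library, class and mitochondrial fraction. Matrix sums lay 0 to 197 UMIs below the deposited totals.

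UMIs were summed by class and library and divided by their total (CPM). Intervals were exact Poisson for CPM, exact conditional for ratios and Clopper-Pearson for shares. For differences of shares, the Clopper-Pearson bounds were combined by Newcombe's formula, in place of its usual Wilson bounds. Counts of genes past a fold used genes with at least 50 UMIs over both sides, and shares over all genes were not matched to the members for depth. Cells were thinned with a fixed seed (Python 3.11.15, numpy 2.4.6, scipy 1.17.1). Scaling factors came from edgeR 4.0.16 and DESeq2 1.42.0, with no model fitted. Doublets were neither called nor removed. Scripts were tested on simulated data. Named were, by role, the 2 members with the most UMIs, the extremes of the comparisons, the 5 most and least gathered members, family pairs, and the 2 G1 genes with the most UMIs. The members and lists were chosen with earlier results of these data known.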

Additional observations from a re-analysis of the deposited data

Results flagged for a closer look

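The summed mitosis genes differed in opposite directions between the libraries in neighbouring classes. The log2 ratio, SP3-null over wild-type, was 0.41 in conflux AE and -0.55 in pre-HE, and it was -0.42 in HE. Each class had 1 library per genotype, so the difference between the classes was not tested.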

How the results depend on the processing

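The log2 ratios of the endothelial cells, HE, IAC, conflux AE, pre-HE and the stage steps kept their sign under the alternatives run for them. The sum of Wnt-low VE had a log2 ratio of 0.015 with all cells and -0.0021 with cells alike, and the IAC share difference was -2.04, 2.27 and -1.37 points at limits of 5, 10 and 20 UMIs. None of the 40 members passed the library fold in the endothelial cells with TMM or DESeq2 factors, in cells of at least 5000 UMIs, with no minimum or one of 200 UMIs, or at a log2 ratio of 0.5. The settings for conflux AE and pre-HE, and those that left out the 5% of cells with the most UMIs or, for sums, cells with markers of other types, were chosen after seeing the data, as were the unthinned Top2a share and the stage steps without 3 cells. The endothelial log2 ratio of -0.034 was -0.015 with TMM factors and -0.014 with DESeq2 size factors, -0.045 without Ube2c, -0.057 as the median of members, -0.085 with cells weighted alike, -0.071 without the deepest 5%, -0.068 with classes weighted alike, -0.049 with other endothelium added, -0.13 in arterial and -0.020 in venous endothelium alone. In HE it was -0.71 without 3 cells, -0.25 without the deepest 5% and -0.35 without other types, which gave -0.024 in IAC. In pre-HE it was -0.14 with cells alike and -0.39 without the deepest 5%. The ratio of conflux AE to Wnt-low AE was -1.43 and -0.98 with cells alike, -1.85 and -1.41 without 3 cells and, in the SP3 null, -0.98 without the deepest 5%. That of HE to conflux AE was 1.23 and 0.47 with cells alike, 1.65 and 0.55 without 3 cells and, in the wild type, 1.46 without the deepest 5% and 1.39 without other types. The Top2a share was 38.7% and 37.4% at 3000 UMIs and 63.2% and 59.02% unthinned, as fewer or more UMIs per cell were read. Apart from the latter, the cause of these shifts was not tested. Depth limits single members in the small classes, since 31 of 40 had at least 50 UMIs in conflux AE, 34 in pre-HE and 35 in HE. With 1 library per genotype, no replicate could be left out and no paired analysis was possible because the groups hold 1 sample each.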

Other observations

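In all 6 classes from Wnt-high AE to IAC, mitosis-high cells had lower summed arterial and endothelial marker levels than the other cells, in both libraries. In the venous classes endothelial markers were nearly level. Their log2 ratios of mitosis-high over other cells were -0.0053 and -0.054 in Wnt-high VE and 0.0051 and -0.0041 in Wnt-low VE. Those of arterial markers were -0.094 and -0.33 in Wnt-high VE and -0.11 and -0.14 in Wnt-low VE. In Wnt-high AE the summed arterial markers stood at 683 against 1279 CPM in the wild type and 629 against 1207 CPM in the SP3 null, mitosis-high cells first. In Wnt-low AE they stood at 924 against 1226 CPM and at 898 against 1179.6 CPM. In HE they stood at 991 against 1739 CPM and at 586 against 1414 CPM, and endothelial markers at 1689 against 2083 CPM and at 1154 against 2234 CPM. Blood markers in HE had log2 ratios of mitosis-high over other cells of 0.093 (-0.11 to 0.30) and 0.20 (-0.034 to 0.43), with both intervals across 0.

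Cdkn1a, which encodes the cell cycle inhibitor p21, was chosen after its values were seen. It stood at 163 and 212 CPM in Wnt-high AE, 38.3 and 43.5 CPM in Wnt-high VE, 11.8 and 14.03 CPM in Wnt-low AE and 11.3 and 11.5 CPM in conflux AE. Cdkn1a was high in Wnt-high AE and Cdkn1c in conflux AE, and both classes had fewer mitosis-high cells than Wnt-low AE. So had pre-HE, at 22.5% and 22.97%, where Cdkn1c stood nearer to its level in Wnt-low AE than in conflux AE. Wnt-high VE also had more Cdkn1a than Wnt-low AE but more mitosis-high cells, 82.6% and 78.8% against 67.5% and 56.8%. Whether either inhibitor bears on these shares was not tested. The 1 wild-type cell classed as a fetal liver hematopoietic stem cell held 694 mitosis UMIs, or 6638 CPM, with all 40 members detected.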
